A study of Mus musculus with 6 samples.

Results

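Multiciliated3 cells are mature multiciliated cells of cultured mouse airway epithelium, and the largest of 4 multiciliated clusters. They were taken as the cells with that name in the deposited cell table, matched by barcode to the table of counts, and numbered 2712 of 23871 cells in 16 clusters. The other multiciliated clusters held 1108 cells (Multiciliated1), 857 cells (Multiciliated2) and 146 cells (Multiciliated4). Primary tracheal epithelial cells of C57BL/6 mice, 12 weeks old, had been grown at air-liquid interface, in which cells exposed to air on their upper side form cilia and secretory granules. The 3 *WT/WT* mice carried 2 normal alleles of *Dnaaf5*, and the 3 *MIS/MIS* mice carried the same missense allele on both chromosomes, with no null allele in either group. *Dnaaf5* encodes a cytoplasmic factor needed to build the dynein motors of cilia, and the comparison asks which transcripts differ between the genotypes within these cells.

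A motile cilium is built on an axoneme of microtubule doublets around a central pair. Outer and inner dynein arms power the beat, nexin-dynein regulatory complexes and radial spokes control it, and the parts are made in the cytoplasm and carried in by intraflagellar transport. A cell on its way to this state first multiplies its centrioles at deuterosomes under MCIDAS and MYB, and then expresses the axonemal genes under FOXJ1 and the RFX factors.

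Every captured transcript is tagged with its own barcode, the unique molecular identifier (UMI), so values count molecules. UMIs were summed over the Multiciliated3 cells of a mouse and divided by that mouse's total, as CPM. From the *WT/WT* mice 1, 2 and 3 came 173, 250 and 265 of these cells, summing to 6226260, 6690306 and 9159961 UMIs. From the *MIS/MIS* mice, called MT1301, MT1306 and MT1383, came 381, 457 and 1186, summing to 11648713, 15756978 and 24790110 UMIs. Among the Multiciliated3 cells, 3 barcodes occurred in more than 1 mouse. Genes of the Y chromosome were expressed in all 6 mice, so sex did not differ between the genotypes. UMI counts at the 3′ end are not scaled for length, so levels are compared between cells for 1 gene and not between genes.

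The data bear out the cluster as ciliated, and 4 of its 5 markers were highest in it. *Cdhr3* and *Cdhr4* encode cadherin-related surface proteins, of which CDHR3 is the receptor of rhinovirus C on ciliated airway cells. *Cdhr3* was at 253, 202 and 205 CPM in the *WT/WT* mice and at 215, 256 and 257 CPM in the *MIS/MIS* mice. In Multiciliated1, the next cluster, its mean over the 6 mice was 42.4 CPM, and in Multiciliated2 it was 8.27 CPM. *Cdhr4* followed the same order, with means of 291 CPM in Multiciliated3, 42.9 CPM in Multiciliated1, 34.2 CPM in Multiciliated4 and 5.16 CPM in Multiciliated2. *Dnah5*, a heavy chain of the outer dynein arm, was at 663, 687 and 556 CPM in the *WT/WT* mice and at 633, 743 and 658 CPM in the *MIS/MIS* mice, against means of 121, 127 and 172 CPM in Multiciliated1, Multiciliated2 and Multiciliated4. *Syne1*, which encodes nesprin-1, a link between the nuclear envelope and the cytoskeleton, was at 145, 111 and 138 CPM in the *WT/WT* mice and at 138, 210 and 157 CPM in the *MIS/MIS* mice, and its mean was at most 18.1 CPM in the other multiciliated clusters. For each of these 4 genes, the lowest mouse in Multiciliated3 lay above the highest mouse in each of the other multiciliated clusters. *Foxj1*, the master regulator of motile ciliogenesis, was the exception. Its mean was 717 CPM in Multiciliated2, 346 CPM in Multiciliated3, 187 CPM in Multiciliated4 and 70.8 CPM in Multiciliated1. The clusters were formed from these genes, so the differences between clusters describe them and were not tested.

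**Figure D1:**
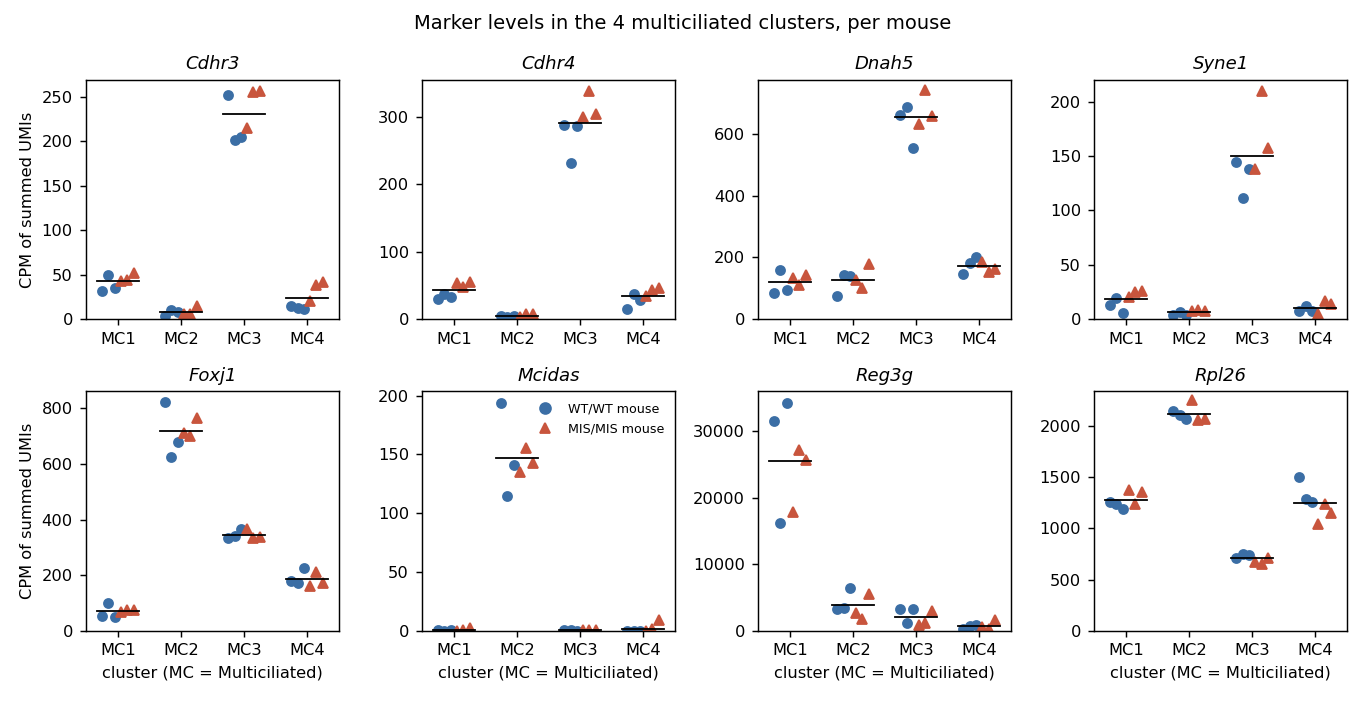
Levels (CPM of UMIs summed per mouse) of the 5 markers, of *Mcidas*, *Reg3g* and *Rpl26* in the 4 multiciliated clusters; circles are *WT/WT* mice, triangles *MIS/MIS* mice, and black lines the mean of the 6 mice. *Cdhr3*, *Cdhr4*, *Dnah5* and *Syne1* stand highest in Multiciliated3, *Foxj1* and *Mcidas* in Multiciliated2, *Reg3g* in Multiciliated1, and *Rpl26* is lowest in Multiciliated3.

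The genes that begin centriole amplification were near 0 in Multiciliated3. *Mcidas*, which starts the multiciliated programme, lay between 0.11 and 1.03 CPM in the 6 mice, against 114 to 194 CPM in Multiciliated2. *Ccno*, a cyclin-related gene of centriole amplification, lay between 5.46 and 9.52 CPM against 380 to 550 CPM. *Deup1*, which builds the deuterosome, lay between 11.7 and 15 CPM against 317 to 421 CPM. *Myb*, a transcription factor of the same early stage, remained at 80.5 to 123 CPM against 407 to 603 CPM. Of 30 deuterosome and amplification genes, 18 had a mean of 5 CPM or more in Multiciliated3, and 17 of these were lower there than in Multiciliated2 in all 6 mice. Their median log2 ratio to Multiciliated2 was -1.46, while over all 10432 genes at that level the median was 0.28. The counts and medians of lists given for clusters below cover the members at 5 CPM or more in Multiciliated3, with the size of the whole list beside them where fewer reached it. At that level, 3783 of all 10432 genes were highest in Multiciliated3 among the multiciliated clusters. Their counterpart for ratios, the median over all 10432 genes, was 0.25 against Multiciliated1 and 0.92 against Multiciliated4.

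Markers of other airway cells were low but present. *Reg3g*, a secreted antimicrobial lectin, lay between 908 and 3293 CPM in Multiciliated3 and between 16261 and 34316 CPM in Multiciliated1. *Scgb3a2*, a secretoglobin of secretory cells, lay between 30.4 and 174 CPM, against 254 to 2599 CPM in Multiciliated1. With every cell thinned to 5000 UMIs, at least 1 *Scgb3a2* UMI was found in 11.3% to 34.3% of Multiciliated3 cells and in 14.6% to 35.9% of Basal1 cells, which are not secretory. *Foxj1*, in contrast, was found in 76.9% to 83.0% of thinned Multiciliated3 cells and in 0.8% to 3.0% of thinned Basal1 cells. Without thinning, *Foxj1* was found in 97.7% to 100% of Multiciliated3 cells, at median depths of 20098 to 36404 UMIs, and in 8.7% to 15.3% of Basal1 cells, at 23298 to 38461 UMIs. For *Scgb3a2* the unthinned shares were 57.3% to 79.8% and 52.2% to 78.6%. The *Scgb3a2* share in Multiciliated3 cells was thus at the level of basal cells, whereas that of *Foxj1* was not. *Reg3g* differed from *Scgb3a2*, since its thinned share was higher in Multiciliated3 than in Basal1 cells in every mouse. It was 57.5% to 85.0% in Multiciliated3 and 38.4% to 64.3% in Basal1 cells, and without thinning 93.0% to 99.4% and 82.0% to 96.2%. Of 15 secretory genes (24 in the list), 1 was highest in Multiciliated3 among the multiciliated clusters, and the list's median log2 ratio was -2.88 against Multiciliated1 and -1.44 against Multiciliated2. Multiciliated1 held both ciliary and secretory transcripts. Lists of rarer cells were nearly silent in Multiciliated3, with 1 member at 5 CPM or more among 7 ionocyte genes, 1 among 9 neuroendocrine genes, 1 among 13 measured immune and stromal genes (*Lyz2*, which airway epithelium also makes) and 0 among 7 measured tuft cell genes.

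The genes that stood out most in Multiciliated3 included long structural genes of the cilium and surface genes. Of 3319 genes at 50 CPM or more in every mouse, 1116 were highest in Multiciliated3 among the multiciliated clusters and 117 were over 2-fold above the next. Of these 117, 112 were also highest among all 16 clusters. The 15 with the largest ratio began with *Syne1* (8.26-fold above the next multiciliated cluster), *Cdhr4* (6.79-fold) and *Cdhr3* (5.46-fold). Outer arm heavy chains formed a group among them, with *Dnah11* at 4.40-fold, *Dnah9* at 4.08-fold and *Dnah5* at 3.82-fold. *Cfap54*, a central pair protein, was 3.77-fold higher, and *Cfap43*, needed for the beat of cilia and sperm tails, was 4.10-fold higher. Others were not axonemal: *Syt5*, a calcium-binding synaptotagmin of vesicle fusion, was 4.79-fold higher, *Sema3e*, a secreted semaphorin, 4.72-fold, and *Adam8*, a surface metalloprotease, 4.32-fold. *Vwa3a* (4.27-fold), *Gm281* (4.14-fold) and *Erich3* (3.69-fold) completed the group with *Rnase4*, a secreted ribonuclease, which was 4.27-fold above Multiciliated1 but highest of all clusters in ionocytes. Just outside the 15 stood *Cyp2s1* at 3.68-fold, *Frmpd2* at 3.67-fold and *Dnah3*, an inner arm heavy chain, at 3.56-fold. Below the floor of that ranking, *Cdhr1*, another cadherin-related gene, had a mean of 23.3 CPM and was 9.04-fold above the next cluster.

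The values behind these ratios were even across mice. *Dnah11* lay between 85.7 and 104 CPM in the 6 mice with a median of 93.5 CPM, and the highest mouse of any other multiciliated cluster had 27.4 CPM. *Dnah9* lay between 154 and 210 CPM with a median of 186 CPM, against at most 63.3 CPM elsewhere. *Adam8* lay between 225 and 260 CPM with a median of 235 CPM, against at most 78.8 CPM. In all 3 the ranges left a gap between Multiciliated3 and the rest of the multiciliated cells. *Sema3e* lay between 138 and 168 CPM with a median of 155 CPM, against at most 48.6 CPM. *Syt5* lay between 99.4 and 135 CPM with a median of 114 CPM, against at most 48.9 CPM in Multiciliated4, whose sums were small.

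The motor genes were not uniformly highest in Multiciliated3. Comparisons with Multiciliated4, here and below, rest on 6 to 52 cells per mouse, and on 81811 UMIs in *WT/WT* mouse 2. Of 11 outer arm genes (13 in the list), 5 were highest in Multiciliated3, and the list's median log2 ratio was 2.11 against Multiciliated1, 1.19 against Multiciliated2 and -0.46 against Multiciliated4. The heavy chains named above were highest in Multiciliated3, but *Dynlrb2*, a light chain, had a mean of 1239 CPM there and 2963 CPM in Multiciliated4, and *Dnaic1*, an intermediate chain, had 64.2 and 90.9 CPM. Of 15 inner arm genes (17 in the list), 10 were highest in Multiciliated3, with medians of 2.13, 1.15 and 1.24 against the same 3 clusters. *Dnah6*, an inner arm heavy chain, was 2.61-fold above the next cluster, while *Dnali1*, a light intermediate chain, was at 235 CPM against 342 CPM in Multiciliated4. Of 6 outer arm docking genes, 2 were highest in Multiciliated3, with medians of 2.21, 0.68 and 0.14. *Ccdc114*, which anchors the outer arm to the doublet, was 2.62-fold above the next cluster.

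The complexes that control the beat showed the same pattern. Against Multiciliated4, the median of each list in this paragraph lay below the 0.92 of all genes. Of 16 central pair genes (18 in the list), 12 were highest in Multiciliated3, with median log2 ratios of 2.16 against Multiciliated1, 1.51 against Multiciliated2 and 0.87 against Multiciliated4. *Hydin*, a giant central pair protein, had a mean of 166 CPM against 27.2, 16.2 and 52.3 CPM. Of 15 radial spoke genes (16 in the list), 8 were highest, with medians of 2.15, 0.91 and 0.29. *Cfap61*, a component at the spoke base, was 3.97-fold above the next cluster, whereas *Rsph1*, of the spoke head, had 864 CPM against 730 CPM in Multiciliated2 and 1911 CPM in Multiciliated4. Of 12 genes of the nexin-dynein regulatory complex and its molecular ruler, 6 were highest, with medians of 2.35, 1.35 and -0.07. *Ccdc40*, the partner of *Ccdc39* in the ruler, was 1.57-fold above the next cluster. The proteins inside the doublets were mostly highest elsewhere: 3 of 26 (33 in the list) were highest in Multiciliated3, with medians of 2.20, 0.67 and -0.62, and *Tekt1*, a tektin, was at 249 CPM against 431 CPM in Multiciliated4. Every counted member of the inner arm, ruler, spoke, central pair and doublet lists exceeded Multiciliated1 in all 6 mice.

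The machinery that makes and delivers the axoneme differed less from Multiciliated2. Of 20 dynein assembly factors (23 in the list), 3 were highest in Multiciliated3, and the median log2 ratio was 1.75 against Multiciliated1, 0.22 against Multiciliated2 and -0.21 against Multiciliated4, where the first exceeded and the others lay below the medians of all genes (0.25, 0.28 and 0.92). *Dnaaf5* itself had the largest ratio of that list, with a mean of 68.4 CPM in Multiciliated3, 20.6 CPM in Multiciliated1, 34.2 CPM in Multiciliated2 and 28.5 CPM in Multiciliated4. *Hsp90aa1*, the inducible form of the chaperone HSP90, was highest in Multiciliated2, at 6634 CPM against 4242 CPM. Of 30 intraflagellar transport genes (32 in the list), 16 were highest, with medians of 1.65, 0.77 and 0.08, and *Wdr19*, which encodes the IFT144 subunit of the retrograde complex, was 2.04-fold above the next cluster. Of 10 genes of the BBSome, the cargo adaptor of the transport trains, 6 were highest, led by *Bbs1* at 2.99-fold. Of 45 basal body genes (47 in the list), 25 were highest, and *Cep290*, of the transition zone, had 374 CPM against at most 172 CPM. Of 27 tubulins and tubulin modifiers (34 in the list), 6 were highest, and the median against Multiciliated2 was 0.10. *Tuba1a* had 2218 CPM against 454 CPM in Multiciliated1, 716 CPM in Multiciliated2 and 2471 CPM in Multiciliated4. Of 24 transcription factors of ciliogenesis (30 in the list), 13 were highest, among them *Rfx3*, a regulator of ciliary genes, at 95.9 CPM against at most 41.4 CPM. Against Multiciliated2, the medians of the assembly factors and the tubulins lay below the 0.28 of all genes, and against Multiciliated1 the smallest median of these groups was the 0.72 of the transcription factors.

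Some genes of the apical surface were also high. Of 23 genes of apical actin, polarity and nuclear anchorage (32 in the list), 15 were highest in Multiciliated3, among them *Ezr*, which ties actin to the apical membrane, at 1376 CPM against at most 1113 CPM. Of 43 genes of the surface and secretions of ciliated airway cells (47 in the list), 16 were highest, and the median log2 ratio to Multiciliated2 was 1.24. That count lay near the share over all genes, 3783 of 10432, while the median over all genes was 0.28. *Cd24a*, a surface glycoprotein of ciliated cells, had 1824 CPM against at most 1014 CPM, and *Tmem212*, a membrane protein of ciliated cells, had 1145 CPM against at most 736 CPM. *Tppp3*, a microtubule-binding protein of mature ciliated cells, had 2298 CPM, more than in Multiciliated1 (692 CPM) and Multiciliated2 (457 CPM) and less than in Multiciliated4 (2848 CPM). Of 37 glutathione and antioxidant genes (44 in the list), 4 were highest and 4 lowest in Multiciliated3, and *Gsto1*, a glutathione transferase, had 2882 CPM against 6033 CPM in Multiciliated1. The cytochrome P450 genes differed among themselves, since *Cyp2f2* had 3579 CPM against 9388 CPM in Multiciliated1 while *Cyp2s1* was highest in Multiciliated3.

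**Figure D2:**
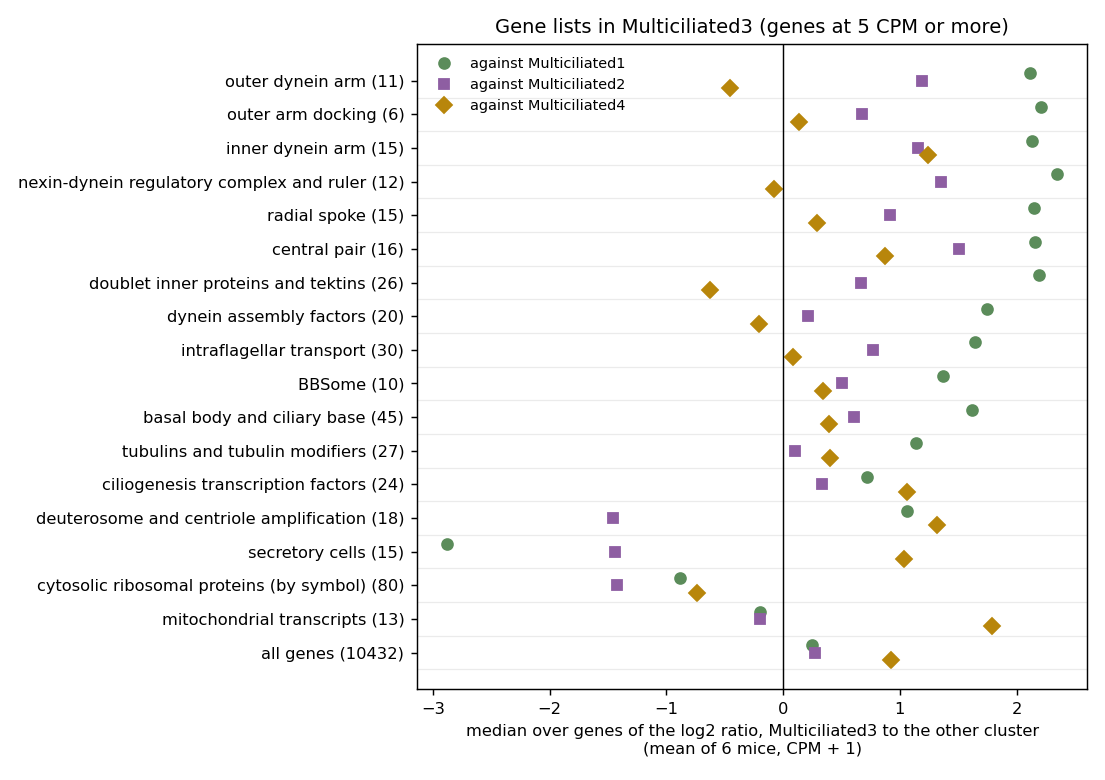
Median over the genes of each list (number of genes in brackets) of the log2 ratio of Multiciliated3 to Multiciliated1 (green circles), Multiciliated2 (purple squares) and Multiciliated4 (gold diamonds), each ratio the mean over 6 mice of CPM + 1. The axonemal lists lie about 2 log2 units to the right of Multiciliated1, the deuterosome list lies at -1.46 against Multiciliated2, and the ribosomal list lies left of 0 in all 3 comparisons.

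The genes furthest below the other multiciliated clusters were led by those of the ribosome. Of 80 cytosolic ribosomal protein genes (81 in the list), 78 were lowest in Multiciliated3 among the multiciliated clusters, with a median log2 ratio of -0.89 against Multiciliated1, -1.43 against Multiciliated2 and -0.74 against Multiciliated4. *Rpl26* lay between 650 and 753 CPM in the 6 mice, against 2063 to 2260 CPM in Multiciliated2, and the ranges did not meet. *Rps4x* had a mean of 410 CPM against 744 to 1083 CPM in the other clusters. Of 1411 genes at 50 CPM or more in every mouse of the other multiciliated clusters, 318 were lowest in Multiciliated3 and 0 were over 2-fold below each of the others. CPM are shares of a total, so a group that takes more of the total lowers the rest, and whether the ribosomal genes fell in molecules per cell was not tested. *Stmn1*, which destabilizes microtubules and is common in young cells, was at 335 CPM in Multiciliated2 and at 40.4 CPM in Multiciliated3, near the 36.3 CPM of Multiciliated1.

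Many of the leading genes were long, and 8 of the 15 spanned over 100 kb. In the GENCODE M21 annotation of GRCm38 the 15 leading genes had a median span of 104 kb and a median longest transcript of 5.97 kb, and the 117 genes over 2-fold (115 annotated) had 59.1 and 4.58 kb, against 22.2 and 3.01 kb for all 3319 (3295 annotated). *Syne1* spanned 531 kb at chr10:5020917-5551482 on the minus strand, and *Dnah5* lay at chr15:28203752-28472052 on the plus strand. *Cdhr3*, at chr12:33033796-33092875, was nearer to the median of the group, and *Cdhr4*, at chr9:107992497-107999684, was short. So were *Syt5*, *Adam8* and *Rnase4*, with spans of 7.78, 13.6 and 15.1 kb. With the genes divided by span into 4 groups of equal size, the median log2 ratio of Multiciliated3 to Multiciliated2 was -0.05 in the shortest group and 0.18, 0.33 and 0.57 in the next 3. Against Multiciliated1 the 4 medians were 0.06, 0.31, 0.30 and 0.42. Against Multiciliated4, whose cells had median depths of 8355 to 11628 UMIs, they ran from -0.59 in the shortest group to 1.24 in the longest. The part of gene length, or of unspliced transcripts, in the ratios of the leading genes was not tested.

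**Figure D3:**
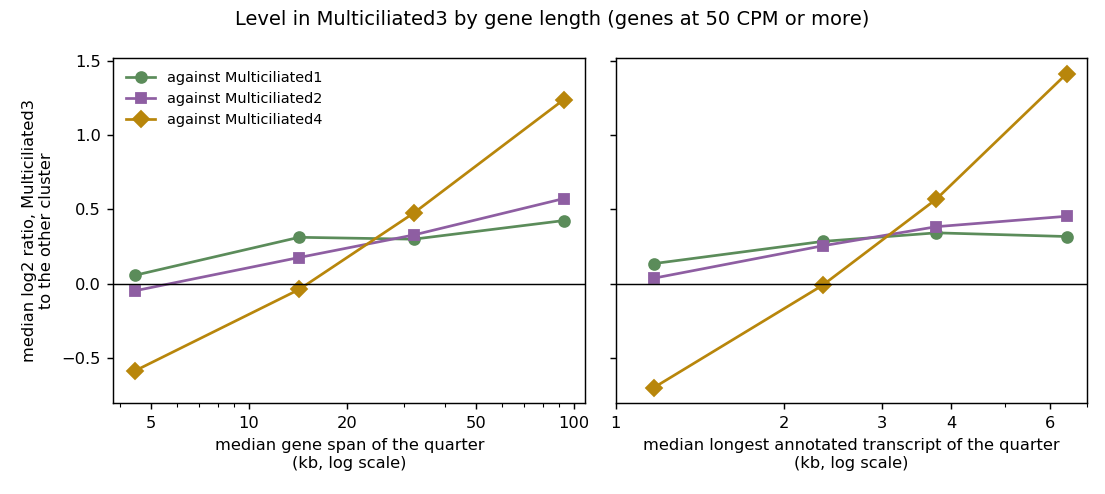
Median log2 ratio of Multiciliated3 to each other multiciliated cluster in 4 equal groups of the genes at 50 CPM or more, by gene span (left) and by longest annotated transcript (right), both in kb on a log axis. The ratio to Multiciliated4 runs from -0.59 in the group with the shortest spans to 1.24 in the group with the longest, and that to Multiciliated2 from -0.05 to 0.57.

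The promoters of these genes were read for 2 motifs, since RFX and FOXJ1 proteins direct motile ciliogenesis. RFX proteins bind the X-box, searched as GTNNCC followed by 3 bases of any kind and GNNAC, on both strands from 250 bases before to 50 bases after the RefSeq start. It was found in 5.26% of all 27025 promoters and in 7.26% of the 8310 promoters of genes at 5 CPM or more in Multiciliated3. Among the 10 axonemal, assembly and transport lists, 41 of 142 promoters held it (28.9%), among them 7 of 14 assembly factors (50%), 8 of 25 doublet proteins (32%) and 4 of 16 central pair genes (25%). The promoters of these lists include those of members below 5 CPM. In the 11 outer arm genes it occurred in 0, and in the 13 leading genes with a promoter in the table it also occurred in 0, although 16 of 93 genes over 2-fold held it (17.2%). Printed below are 5 promoters of these lists with a match upstream of the start. Each belongs to a gene at least 2-fold above the next cluster, and not every chromosome was included in this choice. Given are the 60 bases around the match, 5′ to 3′ on the gene's strand (plus for each) in RefSeq GRCm38.p6, with the match in capitals.
*Hydin*, central pair, chr8:110266917-110266976: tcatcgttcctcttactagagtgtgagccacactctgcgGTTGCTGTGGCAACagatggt
*Ccdc114*, outer arm docking, chr7:45924155-45924214: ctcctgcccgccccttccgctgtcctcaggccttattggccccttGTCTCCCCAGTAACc
*Kif9*, central pair, chr9:110476934-110476993: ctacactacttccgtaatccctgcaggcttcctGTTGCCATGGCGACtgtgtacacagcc
*Wdr19*, intraflagellar transport, chr5:65199636-65199695: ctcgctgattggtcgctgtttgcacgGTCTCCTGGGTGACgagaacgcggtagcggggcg
*Dnaaf5*, dynein assembly, chr5:139150175-139150234: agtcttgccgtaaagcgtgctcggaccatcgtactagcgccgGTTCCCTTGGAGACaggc
In each the match ended 1 to 20 bases before the start. The forkhead letters TGTTTAC, the core that FOXJ1 shares with other forkhead proteins, were found on either strand in 4.05% of all promoters in 4 of the 142 (2.82%) and in 2 of the 13 leading genes (15.4%), *Adam8* and *Cfap43*. A match in a window describes its letters, and binding was not measured here.

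Multiciliated3 joined cells of 2 finer clusters in the authors' table, numbered 3 (2250 cells) and 17 (452 cells), with 10 cells in others. Cluster 17 took 8.67%, 19.6% and 24.5% of the Multiciliated3 cells of the *WT/WT* mice and 16.5%, 11.8% and 17.4% of those of the *MIS/MIS* mice, and the groups overlapped (difference -2.36 percentage points, two-sided exact permutation p = 0.8, n = 3 and 3). The direction rested on *WT/WT* mouse 3, without which the difference was 1.11 points. Of 6048 genes at 30 CPM or more in either, 154 were over 2-fold higher in cluster 17, 149 of them in all 6 mice, and 227 were over 2-fold higher in cluster 3, 221 of them in all 6 mice. The genes named here were chosen after their values were seen, the finer clusters were made from them, and no test applies.

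Genes known from the integrated stress response were among those highest in cluster 17. *Atf4*, the transcription factor at its centre, was at 182, 186, 185, 227, 180 and 197 CPM in cluster 3 and at 704, 674, 488, 666, 497 and 519 CPM in cluster 17, in the order of the mice above. *Ddit3*, which encodes the stress factor CHOP, had a mean of 20.1 CPM ± 1.99 (SD, n = 6) in cluster 3 and 155 CPM ± 35 in cluster 17. *Atf5*, a related factor of mitochondrial stress, had 84.7 CPM ± 17.4 and 440 CPM ± 81.0. In these genes no mouse of cluster 17 fell within the range of cluster 3. *Trib3*, an ATF4 target, was 8.98-fold higher in cluster 17, *Gdf15*, a stress cytokine, 9.54-fold, *Sesn2* 2.79-fold and *Mthfd2*, a mitochondrial folate enzyme, 2.73-fold. The mitochondrial chaperones *Hspa9* (3.05-fold) and *Hspe1* (3.02-fold) and *Ppargc1a*, a regulator of mitochondrial biogenesis (2.93-fold), were also higher. Of the 26 genes of the stress and heat shock list, 17 had a higher mean ratio in cluster 17, with a median log2 ratio of 0.30 against 0.16 for all genes. That count lay near the share over all genes at 5 CPM or more in Multiciliated3, of which 6663 of 10432 were higher. Host genes of small nucleolar RNAs were also higher, with *Zfas1* 10.3-fold, *Snhg6* 6.14-fold, *Snhg1* 4.22-fold and *Gas5* 2.90-fold higher. All 80 ribosomal protein genes had a higher mean ratio in cluster 17, with a median log2 ratio of 0.38. Markers of other epithelial cells had higher means as well, unevenly between mice. *Krt17* was 9.0-fold higher (higher in 5 of 6 mice), *Krt14* 4.12-fold (3 of 6) and *Krt13* 4.04-fold (4 of 6). Of 11 basal cell genes 8 had a higher ratio (median 0.35), and of 7 squamous genes 5 (median 0.36), beside 6663 of all 10432 genes (median 0.16). *Krt14* was at 9.84 CPM ± 5.96 (SD, n = 6) in cluster 3 and 40.6 CPM ± 50 in cluster 17. *Krt13* was at 46.7 and 4.99 CPM in cluster 3 and 144 and 82.0 CPM in cluster 17 in *WT/WT* mice 1 and 3. In the other mice *Krt13* was at most 2.40 CPM in either finer cluster. The part of such cells in cluster 17 was not tested.

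Cluster 3 held more of the surface and axonemal transcripts. *Lypd2* had 434 CPM ± 163 (SD, n = 6) in cluster 3 and 34.9 CPM ± 13.3 in cluster 17, and *Ifitm1*, an interferon-induced membrane protein, had 4083 CPM ± 842 and 926 CPM ± 433. *Agr2*, a disulfide isomerase of mucus-producing cells, was at 173 CPM ± 74.3 and 17.4 CPM ± 11.3, and *Muc16*, a tethered mucin, at 90.2 CPM ± 47.9 and 12.5 CPM ± 7.09. The mice did not overlap between the finer clusters for *Lypd2* and *Ifitm1*. The median log2 ratio of cluster 17 to cluster 3 was -0.58 for the outer arm, -0.76 for the inner arm, -0.64 for the radial spoke and -0.63 for the central pair lists. *Dnah5* was at 689, 768, 639, 697, 785 and 705 CPM in cluster 3 and at 477, 340, 286, 297, 390 and 432 CPM in cluster 17, so that each mouse was lower in cluster 17. The median mitochondrial share of UMIs was lower in cluster 17 than in cluster 3 in every mouse, at 4.52% to 8.65% against 7.51% to 9.90%. Median depths were alike, at 19682 to 34498 UMIs in cluster 17 and 20189 to 36756 UMIs in cluster 3. Doublets were not called, and their part in either cluster was not tested.

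**Figure D4:**
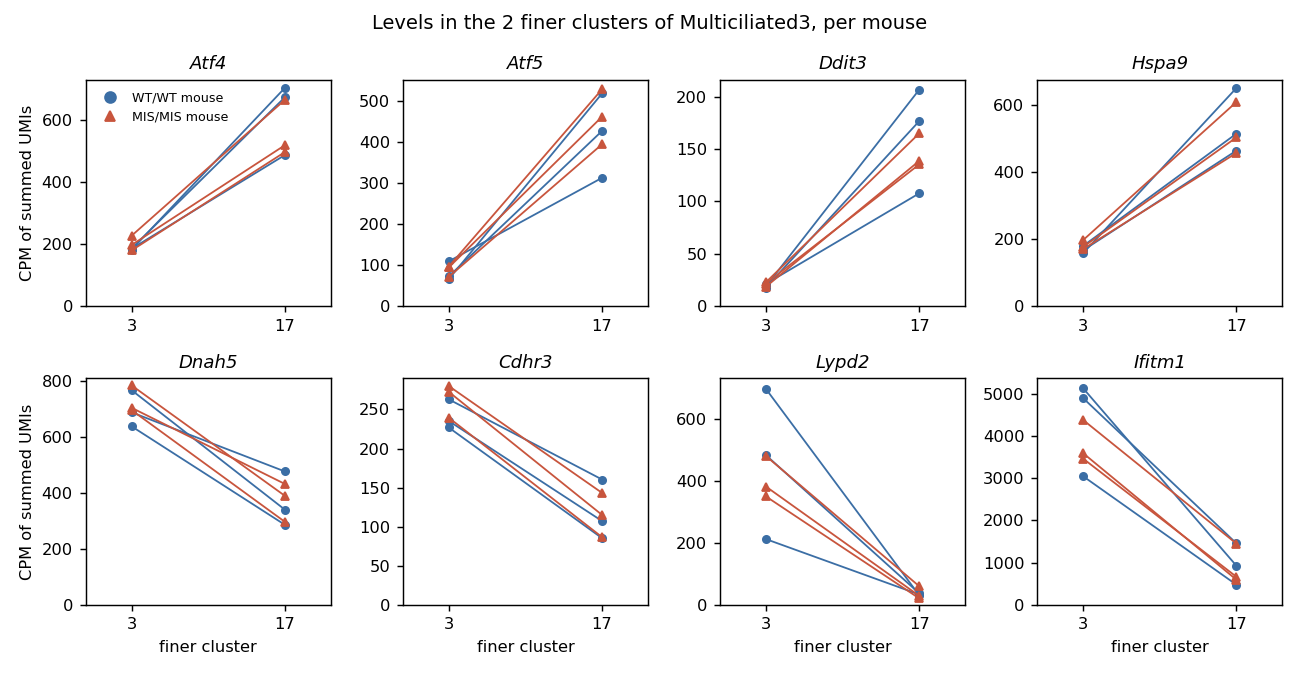
Levels (CPM) of *Atf4*, *Atf5*, *Ddit3*, *Hspa9*, *Dnah5*, *Cdhr3*, *Lypd2* and *Ifitm1* in the finer clusters 3 and 17 of Multiciliated3; each line joins the values of 1 mouse, blue circles for *WT/WT* and red triangles for *MIS/MIS*. The 4 stress genes are higher and the other 4 lower in cluster 17 in each of the 6 mice.

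Between the genotypes, the share of Multiciliated3 cells was higher in *MIS/MIS* cultures by its mean, but the mice overlapped. It was 6.09%, 5.16% and 9.56% of all cells in the *WT/WT* mice and 9.45%, 17.1% and 17.7% in the *MIS/MIS* mice, that is 6.94% ± 2.32 and 14.7% ± 4.59 (SD, n = 3 each). The difference of 7.80 percentage points had a two-sided exact permutation p of 0.2, and 3 mice against 3 cannot go below 0.1. *MIS/MIS* mouse MT1301 lay just below *WT/WT* mouse 3. Median UMIs per cell were 36404, 26541 and 34183 against 30229, 34387 and 20098, and median genes were 6810, 5975 and 6737 against 6304, 6613 and 5334, with overlap in both (exact permutation p = 0.6 and 0.5).

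The mitochondrial share did not overlap. Its median was 7.67%, 7.36% and 7.29% in the *WT/WT* mice and 7.95%, 9.62% and 9.0% in the *MIS/MIS* mice (difference 1.41 points, exact permutation p = 0.1, the smallest possible, adjusted p = 0.27 over 8 comparisons). It also did not overlap in finer cluster 3 alone, with 7.80%, 7.51% and 7.58% against 8.19%, 9.90% and 9.12%. In Multiciliated1 the *MIS/MIS* medians were the lower ones, at 11.8%, 11.2% and 11.1% in *WT/WT* and 10.7%, 11% and 10.7% in *MIS/MIS* mice, and likewise in Multiciliated2, at 10.84% to 12.02% against 9.68% to 10.82%. In Multiciliated4 they were higher without overlap, as in Multiciliated3, at 0.918%, 0.472% and 0.840% against 2.16%, 1.32% and 1.70%. The median of Multiciliated3 minus that of Multiciliated1 was -4.15, -3.86 and -3.8 points in the *WT/WT* mice and -2.76, -1.42 and -1.73 points in the *MIS/MIS* mice (difference of the differences 1.97 points, exact permutation p = 0.1, adjusted p = 0.27). For Multiciliated2 the same difference was -4.35, -3.72 and -3.55 points and -1.73, -1.2 and -1.48 points (difference 2.40 points, exact permutation p = 0.1, adjusted p = 0.27). These 2 gaps were compared after the medians had been seen. All 13 mitochondrial transcripts had a higher mean in *MIS/MIS*, 4 of them without overlap between the mice, where 5.05% of all 13096 genes tested were higher without overlap. Of these 13, 0 passed limma's voom test after adjustment, which 0.0229% of all genes did, and 6 had an unadjusted p under 0.05, which 4.5% of all genes had. The share can move with RNA quality as well as with the cells' state, and its part in the genotype differences below was not tested.

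*Dnaaf5*, the mutated gene, was not called different in transcript level. In sums scaled by TMM factors, which adjust for the composition of each library, it was at 65.3 CPM in *WT/WT* and 71.7 CPM in *MIS/MIS* on average (log2 fold change 0.13, adjusted p = 0.98). The allele is a missense change, so its level does not check the genotype labels. The markers of the cluster were likewise not called: *Cdhr3* had a log2 fold change of 0.15 (SE 0.11), *Cdhr4* of 0.23 (SE 0.10), *Dnah5* of 0.10 (SE 0.11), *Syne1* of 0.34 and *Foxj1* of -0.01, each with an adjusted p of 0.98 or above. *Cdhr4* was the marker whose genotypes did not overlap, at 293, 231 and 282 CPM against 301, 343 and 299 CPM. The near-0 values of *Dnah5* and *Foxj1* had no stable sign over the alternatives.

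Of 13096 genes tested with limma's voom test and Benjamini-Hochberg adjustment, 3 passed an adjusted p of 0.05 (0.0229%). *Wdfy1*, a protein of endosomes that helps Toll-like receptors signal, rose in *MIS/MIS* cells. *Sult1d1*, a sulfotransferase of small phenols and amines, also rose. *Fank1*, a protein with fibronectin and ankyrin domains known from testis and ciliated cells, fell. With no adjustment, 589 genes had a p under 0.05 (4.5%), of which 287 were higher and 302 lower in *MIS/MIS*. The genotypes did not overlap in 662 genes that were higher (5.05%) and in 640 that were lower (4.89%). The p-values measure the spread between mice, 1 culture each as far as the labels say.

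*Wdfy1* was at 28.8, 35.4 and 31.6 CPM in the *WT/WT* mice and at 119, 120 and 130 CPM in the *MIS/MIS* mice. The lowest *MIS/MIS* mouse lay more than 3-fold above the highest *WT/WT* mouse. The log2 fold change was 1.94 (SE 0.094, limma's adjusted p = 0.000131), a 3.85-fold difference, and it passed in 15 of 15 alternatives with adjusted p from 5.0e-05 to 0.00479. With cells thinned to 5000 UMIs, a *Wdfy1* UMI was found in 14.5%, 13.6% and 14.3% of *WT/WT* cells and in 45.7%, 46.2% and 47.6% of *MIS/MIS* cells. Without thinning the shares were 60.7%, 57.2% and 63.0% against 95.8%, 95.2% and 90.6%. Basal1 cells differed in the same direction, with thinned shares of 10.3%, 12.5% and 12.0% against 36.2%, 33.1% and 29.4%, and unthinned shares of 47.1%, 43.7% and 49.8% against 91.5%, 89.4% and 83.5%. The gene lies at chr1:79702262-79776143 on the minus strand in GRCm38, on another chromosome than *Dnaaf5* (chr5:139150223-139186510).

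*Sult1d1* was at 259, 254 and 227 CPM in the *WT/WT* mice and at 461, 441 and 461 CPM in the *MIS/MIS* mice, with no overlap. The log2 fold change was 0.88 (SE 0.072, limma's adjusted p = 0.00545), a 1.85-fold difference. It passed in 14 of 15 alternatives and was lost in finer cluster 17 alone, where it was 0.42. Thinned, a UMI was found in 24.3%, 27.6% and 24.9% of *WT/WT* cells and in 48.3%, 40.3% and 49.3% of *MIS/MIS* cells, against at most 9.0% of Basal1 cells. Without thinning the shares were 30.1%, 42.0% and 37.0% against 57.7%, 53.6% and 58.0%, and 5.1% to 17.6% of Basal1 cells. The gene lies at chr5:87554645-87569027 on the minus strand of the chromosome that also carries *Dnaaf5*.

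*Fank1* was at 132, 145 and 125 CPM in the *WT/WT* mice and at 68.8, 76.1 and 69.3 CPM in the *MIS/MIS* mice, with no overlap. The log2 fold change was -0.91 (SE 0.080, limma's adjusted p = 0.00728), so that the level was 1.87-fold lower. It passed in 13 of 15 alternatives, and was lost without *WT/WT* mouse 1 (adjusted p = 0.0505) and in finer cluster 17 alone (-0.70). Thinned, a UMI was found in 51.4%, 53.2% and 50.2% of *WT/WT* cells and in 29.1%, 34.1% and 29.3% of *MIS/MIS* cells, and in at most 0.7% of Basal1 cells. Without thinning the shares were 94.2%, 95.2% and 94.0% against 79.3%, 89.3% and 73.9%, and 1.4% to 4.4% of Basal1 cells. The gene lies at chr7:133776861-133881532 on the plus strand.

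Leaving out 1 mouse changed the count of lower genes. It was 0 without *WT/WT* mouse 1, and it was 2 in 3 further cases, where *Krt15* (*WT/WT* mouse 3 left out), *Hspa1b* (MT1301 left out) or *Ly6a* (MT1383 left out) joined *Fank1*. The count of higher genes stayed at 2 whichever mouse was left out.

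**Figure D5:**
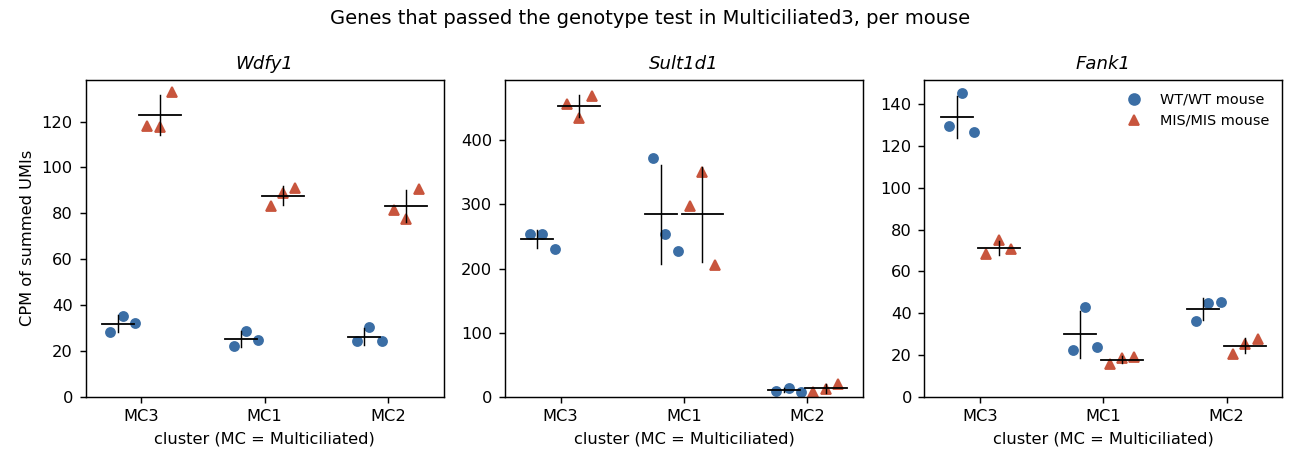
Levels (CPM of summed UMIs, with no further scaling) of *Wdfy1*, *Sult1d1* and *Fank1* in Multiciliated3, Multiciliated1 and Multiciliated2; circles are *WT/WT* mice, triangles *MIS/MIS* mice, and black lines the mean ± SD of each genotype (n = 3). *Wdfy1* is higher in *MIS/MIS* mice in all 3 clusters, and *Sult1d1* is apart between genotypes in Multiciliated3 and overlaps in Multiciliated1.

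In the other multiciliated clusters 1 gene passed the same test, and it was *Wdfy1* in both. In Multiciliated1 (1 of 11446 genes, 0.00874%) its log2 fold change was 1.77 (limma's adjusted p = 0.000803), and in Multiciliated2 (1 of 11674 genes, 0.00857%) it was 1.62 (adjusted p = 0.00432). *Sult1d1* had a log2 fold change of -0.05 in Multiciliated1 and 0.25 in Multiciliated2, and *Fank1* of -0.71 and -0.81, none of which passed. The difference of the genotype effect between clusters was tested itself, with the mouse as a block. For *Sult1d1* it was 0.97 (SE 0.214) between Multiciliated3 and Multiciliated1 (limma's adjusted p = 0.66). Over all genes, limma called 0 of 12740 differences against Multiciliated1 (0.0%, with 555 at an unadjusted p under 0.05) and 0 of 13237 against Multiciliated2 (0.0%, with 560). Without *MIS/MIS* mouse MT1301 the first count was 4 (*Ifi27l2a*, *mt-Co2*, *mt-Atp6* and *mt-Cytb*), and without *WT/WT* mouse 3 it was 1 (*Olfm4*). No genotype effect was thus shown to be particular to Multiciliated3.

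Below the threshold, the higher genes with the lowest p and no overlap included *Mt2* and genes of the ciliary base. *Mt2*, a metal-binding protein, was at 701, 732 and 650 CPM against 1065, 890 and 1008 CPM (log2 fold change 0.51, limma's adjusted p = 0.51), and *Mt1* was at 3750, 3785 and 3541 CPM against 5180, 4416 and 4696 CPM. *Efcab7*, a ciliary base protein of Hedgehog signalling, was at 14.9, 11.6 and 13.2 CPM against 27.5, 26.4 and 41.3 CPM (1.27). *Dzip1*, a basal body protein, had a log2 fold change of 0.33, *Slc16a7*, a monocarboxylate carrier, of 0.62, *Rab4a*, of endosome recycling, of 0.60, and *Tgfbr3*, a TGF-β co-receptor, of 0.63. *Smim27* had 0.56 and *Gm29538* had 0.36. None of these passed. Separation of the genotypes was a condition of the choice, and 5.05% of all 13096 genes tested were higher without overlap.

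The lower genes of the same kind included *Fmo6* and a gene of the Y chromosome. *Fmo6*, a flavin monooxygenase, was at 36.8, 33 and 39.5 CPM against 21.2, 20.7 and 24.1 CPM (log2 fold change -0.72, limma's adjusted p = 0.25), and it was also 17.1-fold higher in finer cluster 3 than in 17. *Gm47283*, on the Y chromosome at chrY:90784738-90816464, was at 30, 57.6 and 69.9 CPM against 3.11, 17.8 and 2.62 CPM (-3.39, adjusted p = 0.59), although *Ddx3y*, on the same chromosome, lay between 55.2 and 63 CPM in the 6 mice. *Serpinb1a* (-1.0) and *Serpinb5* (-0.52) encode serpins. *Sectm1b* (-0.89), *Tubb2b*, a β-tubulin (-0.75), *Hebp2* (-0.51), *Ptpre*, a phosphatase (-0.48), and *Trim2*, a ubiquitin ligase (-0.40), completed the group. *Gm47283* passed in 1 alternative, with cells thinned to 5000 UMIs, at -3.79 (adjusted p = 0.0234).

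No axonemal gene was called. Beside the counts without overlap below stand the 5.05% of all genes that were higher and the 4.89% that were lower without overlap. Of 17 central pair genes tested, all 17 had a higher mean in *MIS/MIS*, 2 without overlap, and their median log2 fold change was 0.11. Of 15 inner arm genes, 13 were higher, 2 without overlap, with a median of 0.11. Of 12 outer arm genes 8 were higher, and of 20 assembly factors 10, with 0 without overlap in either direction in both lists. Of 28 doublet proteins 14 were higher, with 1 without overlap in each direction. Of 31 transport genes 20 were higher, but 4 were lower and 1 was higher without overlap. Among 45 basal body genes 29 were higher, with 8 higher and 3 lower without overlap. Among 15 radial spoke genes 10 were higher, with 1 without overlap in each direction. The regulatory complex and ruler had 9 of 12 higher, with 0 without overlap in either direction. Docking genes had 4 of 6 higher, 1 without overlap. Of 10 BBSome genes 6 were lower, 2 without overlap. Of 31 tubulins and tubulin modifiers 17 were lower, 5 of them without overlap and 2 higher without overlap, and 8 had an unadjusted p under 0.05. The summed level of the whole tubulin list, without TMM scaling, ran from 8746 to 9823 CPM in *WT/WT* and from 8083 to 8504 CPM in *MIS/MIS*, so the genotypes did not overlap. Over all genes tested, 6448 were higher and 6648 lower, with a median of -0.00. Apart from *Wdfy1*, *Sult1d1* and *Fank1*, no member of any list passed. *Ccdc39* had a log2 fold change of -0.00 and *Rsph9*, of the spoke head, of -0.08. Over the 15 alternatives the central pair median stayed between 0.05 and 0.19 and the inner arm median between 0.05 and 0.21.

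Of the lists outside the cilium, the ribosomal list held the most genes without overlap. Beside its counts and those below stand the 5.05% of all genes that were higher and the 4.89% that were lower without overlap. Of 80 ribosomal protein genes, 68 had a lower mean in *MIS/MIS*, 31 of them without overlap and 2 higher without overlap, and the median log2 fold change was -0.11. Across the 15 alternatives that median ran from -0.115 to -0.0077. Of 15 basal cell genes tested 12 were lower, 3 without overlap, with a median of -0.31. The summed level of all 18 in the list was 852 to 927 CPM in *WT/WT* and 605 to 744 CPM in *MIS/MIS*. Of 7 squamous genes tested 6 were lower, 1 without overlap, and the sum of all 13 in the list ran from 117 to 274 CPM and from 69.4 to 139 CPM. The sums of lists are CPM without TMM scaling. The 3 metallothioneins were higher, 2 without overlap, with sums of 4298 to 4550 and 5310 to 6243 CPM. The lower basal cell sum in *MIS/MIS* stood beside these values, and its part in them was not tested.

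Lists of metabolism and defence held 0 to 3 genes without overlap in each direction. Beside these counts stand the 5.05% of all genes that were higher and the 4.89% that were lower without overlap. Of 42 glutathione and antioxidant genes 28 were lower, with a median of -0.05, and 2 were lower and 0 higher without overlap. Of 26 stress and heat shock genes 20 were lower, and 1 was lower and 2 higher without overlap. Of 28 interferon and innate genes, which include *Wdfy1*, 16 were lower, and 2 were lower and 2 higher without overlap. Of 16 prostaglandin genes 11 were lower, and 3 were lower and 1 higher without overlap. In limma's voom test, 5 of these 16 had an unadjusted p under 0.05, which 4.5% of all genes had. So did 4 of the glutathione, 2 of the stress and 3 of the interferon genes. *Gsto1* had a log2 fold change of -0.24 and *Ptgr1*, which reduces prostaglandins and leukotrienes, of -0.36, with 64.0 against 49.4 CPM on average. *Gstp1*, another glutathione transferase, had -0.81 and was at 362, 115 and 158 CPM against 101, 140 and 85.8 CPM, and without *WT/WT* mouse 1 the value was -0.35. *Ptgs2*, the inducible cyclooxygenase, had -0.98 and was at 19.3, 48.1 and 22.1 CPM against 39.1, 9.41 and 9.87 CPM. Its value ranged from -1.48 without MT1301 to -0.60 without *WT/WT* mouse 2 or MT1383, and it was -0.43 in finer cluster 17 alone. Each of these 4 had an adjusted p of 0.98 or above.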

How the data were processed

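The authors made droplet (10x 3′ version 2) libraries and processed the reads; per the labels, Cell Ranger 7.1.0 and mm10 were named, whereas the methods of the study name another version. Release 7 counts intronic reads by default, and whether introns were counted here is not given in the sources used here. The deposited table holds whole-number UMI counts of 20483 genes, recorded as another kind of value because its separator is a mistyped tab, and a table of cluster names. The filters stated by the study are 2500 to 7500 genes and at most 25% mitochondrial UMIs, and within them lay 151 of 173, 244 of 250 and 240 of 265 Multiciliated3 cells of the *WT/WT* mice and 365 of 381, 419 of 457 and 1173 of 1186 of the *MIS/MIS* mice. All deposited cells were used. Over all cells, 67 barcodes occurred in more than 1 mouse. No doublet caller was run. The names of the *MIS/MIS* mice are animal numbers found in no sample label, and these mice served as unnumbered replicates of their group.

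For each cluster the counts of a mouse's cells were added up. A gene was tested if 3 or more mice reached the equivalent of 10 counts at the median library size and the 6 mice together had 15 or more. Tests were made with limma 3.58.1 (voom, R 4.3.3), TMM factors (trims 0.3 and 0.05) and Benjamini-Hochberg adjustment at 0.05. Shares and medians were tested by exact, two-sided permutation over the 20 assignments of mice. Levels between clusters are CPM (with 1 added before log2 ratios) and were not tested. Between clusters, a list's members are counted where their mean was at least 5 CPM in Multiciliated3. Genotype counts cover the members tested, and promoter counts cover members at any level with a promoter. Members, lists and tests were chosen with earlier results of these data known. Genes named between genotypes were the markers, genes the study names, genes past the threshold, and per direction up to 10 with the lowest p, no overlap and at least 10 CPM in 1 genotype. On simulated sums 99.5% of 200 genes changed 2-fold were recovered at a dispersion of 0.02 (12967 genes, 7.01% of calls false) and 4.0% at 0.1 (12950 genes). The median SD between mice of a genotype was 0.15 on the log2 scale. Promoters come from RefSeq (GRCm38.p6) and positions from GENCODE M21. Software was pandas 2.3.3, numpy 2.4.6, scipy 1.17.1 and matplotlib 3.10.9 under Python 3.11.15. As alternatives, the fits were repeated without the filter on low counts, with a filter of 10 counts in each mouse, with upper-quartile normalization, with limma-trend, with equal numbers of cells per mouse (173), and with thinning to 5000 UMIs, the stated cell filters, each mouse left out and, added after the data were seen, each finer cluster alone.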

Additional observations from a re-analysis of the deposited data

How the results depend on the processing

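The study describes its wild-type mice as littermates of the *MIS/MIS* mice. No paired analysis was possible, because the labels give no litter or pair. The counts of genes that passed between genotypes (3 in all, 2 higher, 1 lower) were kept within 1.5 times by upper-quartile normalization, limma-trend, no low-count filter, a stricter filter, equal numbers of cells and the stated cell filters. Lower genes numbered 2 with thinned cells (*Fank1*, *Gm47283*) and 2 in finer cluster 3 alone (*Fank1*, *Krt14*). In finer cluster 17 alone, with 15 to 206 cells per mouse, 1 gene passed, 1 higher and 0 lower, and the cause was not tested. With 1 mouse left out, 2 to 4 genes passed, 2 to 2 higher and 0 to 2 lower, and 0 to 4 differed in their effect from Multiciliated1. The share of finer cluster 17 differed by -6.82 to 1.11 percentage points. For the 32 genes whose fold change between genotypes is printed, 460 of 479 values kept their direction and side, and 4 genes had a reversed value. Further genes that the study names, whose fold change is not printed, were not counted. *Dnah5* ranged from -0.0076 to 0.16 on the log2 scale with 1 mouse left out. *Foxj1* was 0.0012 with no low-count filter, 0.071 in finer cluster 17 and -0.054 to 0.025 with 1 mouse left out. *Dnaaf5* was -0.020 in finer cluster 17. *Ccdc39* was 0.00082 with upper-quartile normalization, 0.014 with no filter, 0.0031 with the stricter filter, 0.024 with thinned cells, 0.032 with the stated filters, 0.11 in finer cluster 17 and -0.086 to 0.092 with 1 mouse left out. Depth limits Multiciliated4, where the 3 called genes rested on few UMIs.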
